A study of Mus musculus with 15 samples.

Results

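Mouse embryonic stem cells grown in Serum/LIF, from cultures titled XS, were compared with cells grown in 2i/LIF by their lists of domains with decreased H2A.X. The comparison used 6 lists out of the 10 analysed in the series, chosen by the titles and the labelled culture: XS lines 30, 31 and 32, and 2i/LIF lines 34, 35 and 37. Together they held 18070 of 23031 domains. The series has 15 samples in all, among them 3 inputs and 1 IgG control. All lines were derived from blastocysts of a 129S6 by C57B6 cross and are male or female; the sex of each line was not analysed here. The XS cells were kept on irradiated fibroblast feeders in medium with fetal bovine serum and the cytokine LIF. The 2i/LIF cells were kept in medium with the N2 and B27 supplements in place of serum, with LIF, 1 µM PD0325901, which blocks Mek, and 3 µM CHIR99021, which blocks Gsk3. The sources used here do not say how many feeder cells remained at harvest or what the letters XS stand for. No line number occurs in both groups, so culture and line cannot be told apart in any comparison below. The lists hold no expression data, so the labelled cell type could not be checked against markers.

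H2A.X is a variant of the core histone H2A that is spread through chromatin and becomes phosphorylated, as gamma-H2A.X, around breaks in both DNA strands. Native ChIP-seq, the assay used here, immunoprecipitates nucleosomes released by micrococcal nuclease without crosslinking and here used an antibody labelled as against H2A.X. Embryonic stem cells in 2i/LIF are held in a uniform naive state by blocking Mek-Erk signalling and stabilising beta-catenin, whereas Serum/LIF cultures are more heterogeneous. A decreased domain is, by the name of its list, a stretch with less H2A.X than a control. The state written in every line instead calls a sample enriched, and the direction used here is that of the list's name. Each domain has a start and an end on a grid of bins of 1300 bp of mm9 and a score from the authors. That score never exceeded the number of bins, so the score per bin lies between 0 and 1.

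The 6 lists did not fall into their cultures by how much of the genome they covered. The covered share of the autosomal span of 2412.2 Mb was 36.3%, 72.8% and 30.5% in XS lines 30, 31 and 32. It was 34.6%, 78.2% and 44.8% in 2i/LIF lines 34, 35 and 37. Each group thus had 1 wide list, XS line 31 and 2i/LIF line 35, and 2 narrower ones. The group means were 46.5% ± 22.9 (SD, n = 3) and 52.5% ± 22.8 (SD, n = 3), a difference smaller than the spread within either group (exact permutation p = 0.6, two-sided). With 3 lists against 3 the smallest p possible is 0.1. The lists carry no read counts, so the depth behind them is unknown; whether depth moved with the width of a list was not tested.

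Domain length followed the same split. The median domain measured 203, 394 and 79.3 kb in XS lines 30, 31 and 32 and 191, 363 and 221 kb in 2i/LIF lines 34, 35 and 37. XS line 30 and 2i/LIF lines 34 and 37 were close to each other, both wide lists had longer domains, and XS line 32 had the shortest. Group means were 225 ± 159 kb (SD, n = 3) and 258 ± 91.7 kb (SD, n = 3), and the two-sided exact permutation test gave p = 0.9. The sign of this difference turned without XS line 32 (40.1 kb) or without 2i/LIF line 35 (19.3 kb). Weighted by length, so that one part of the covered length lies in longer domains and an equal part in shorter ones, the medians were 594, 1712 and 333 kb against 525, 1061 and 532 kb.

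The lists also differed in their short and very long domains. In XS line 32, domains of 13 to 100 kb made up 58.2% of all domains, compared with 21.7% and 13.4% in XS lines 30 and 31 and 13.2% to 21.9% in 2i/LIF. Domains longer than 1 Mb held 67.5% of the covered length in XS line 31 and 52.4% in 2i/LIF line 35. In the other 4 lists they held 22.3% to 29.0%. The longest single domain of the 6 lists was in XS line 31, on chromosome 16 from 65295101 to 84805500 (19.5 Mb, mm9), with a score per bin of 0.701. XS line 32 had its longest domain inside the same stretch, from 67835301 to 72568600 (4.73 Mb), with a score per bin of 0.835. The longest domain of XS line 30 was on chromosome 14 from 107827201 to 112671000 (4.84 Mb). In 2i/LIF lines 34 and 37 the longest domains shared 1 place, on chromosome 2 from 166764001 to 173904900 (7.14 Mb) and from 168062701 to 173439500 (5.38 Mb). That of 2i/LIF line 35 was on chromosome 14 from 90628201 to 98447700 (7.82 Mb).

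Scores per bin did not overlap between the cultures where the same bins were compared, and overlapped over whole lists. Over whole lists the score per bin was 0.691, 0.656 and 0.782 in XS lines 30, 31 and 32 and 0.880, 0.717 and 0.796 in 2i/LIF lines 34, 35 and 37. These ranges overlap, and the difference of means of -0.088 was within the reach of the spread between lists (exact permutation test, p = 0.2). Over the 206.5 Mb covered in all 6 lists, the score per bin was 0.772, 0.730 and 0.810 in XS and 0.925, 0.815 and 0.870 in 2i/LIF. Every 2i/LIF list lay above every XS list there, although XS line 32 and 2i/LIF line 35 differed by little. The means were 0.771 ± 0.040 (SD, n = 3) and 0.870 ± 0.055 (SD, n = 3), and the exact permutation test gave p = 0.1, the smallest possible, and 0.433 after Benjamini-Hochberg adjustment over the 13 list-wide measures compared. The restriction to shared bins was chosen after seeing the data.

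The shortest domains went the other way. Domains of up to 13 kb numbered 26, 25 and 39 in XS lines 30, 31 and 32 and 50, 51 and 40 in 2i/LIF lines 34, 35 and 37, which was 0.888% to 1.13% of XS domains and 1.27% to 1.92% of 2i/LIF domains. Their score per bin was 0.644, 0.545 and 0.800 in XS and 0.501, 0.477 and 0.507 in 2i/LIF. Neither measure overlapped between the groups. The exact permutation test gave p = 0.1 for each, and 0.433 after adjustment over 13 measures. These domains held at most 0.048% of the covered length of any of the 6 lists.

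**Figure D1:**
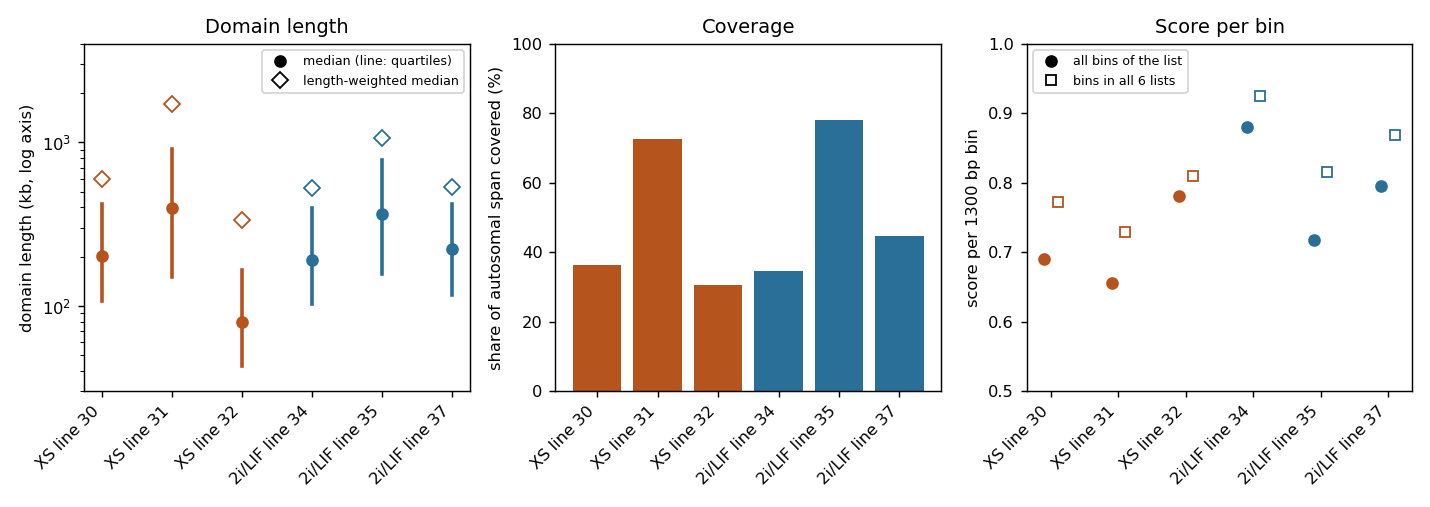
Domain length in kb on a log axis, share of the autosomal span covered in percent and score per 1300 bp bin, for each of the 6 lists (orange, Serum/LIF XS; blue, 2i/LIF); filled circles and lines in the left panel are medians with quartiles. XS line 31 and 2i/LIF line 35 are the widest lists at 72.8% and 78.2%, and over the bins in all 6 lists (open squares) the XS scores of 0.730 to 0.810 lie below the 2i/LIF scores of 0.815 to 0.925.

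Coverage was next compared in windows of 1 Mb, of which 2392 held a domain of at least 1 of the 6 lists. Across windows, the lists of a culture resembled each other more than lists of different cultures on average, with exceptions. Pearson's r was 0.48 to 0.61 between XS lists (3 pairs), 0.23 to 0.83 between 2i/LIF lists (3 pairs) and -0.27 to 0.57 between cultures (9 pairs). These correlations are across windows of 2 lists, and neighbouring windows are not independent. The highest value, 0.83, joined 2i/LIF lines 34 and 37. 2i/LIF line 35 was closer to XS line 31 (0.57) than to either list of its own culture (0.23 and 0.35). The only negative values of r were between XS line 32 and 2i/LIF lines 34 and 37, -0.20 and -0.27. By rank (Spearman's rho), XS line 31 also had negative values with 2i/LIF lines 34 and 37, -0.14 and -0.04.

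Overlap in length did not follow the same order as r. The highest Jaccard index, the length 2 lists had in common over the length in either, joined the wide lists of both cultures, XS line 31 and 2i/LIF line 35 (0.751), ahead of 2i/LIF lines 34 and 37 (0.646). Of the length of XS line 32, 98.6% lay in XS line 31 and 65.1% in XS line 30, while 31.3% lay in 2i/LIF line 34 and 39.5% in 2i/LIF line 37. Of the length of XS line 30, 58.8% lay in 2i/LIF line 34 and 62.7% in 2i/LIF line 37, and 54.6% in XS line 32. 2i/LIF line 35 covered 91.2% of XS line 30 and 89.96% of XS line 32, and 96.6% to 97.7% of 2i/LIF lines 34 and 37. Such shares rise with the width of the covering list, and the Jaccard index with the widths of both lists. Widths were 36.3%, 72.8% and 30.5% of the span in XS lines 30, 31 and 32 and 34.6%, 78.2% and 44.8% in 2i/LIF lines 34, 35 and 37. The shares of XS line 32 in 2i/LIF lines 34 and 37 were below the widths of those lists. All other shares given here were above the width of the covering list.

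When every list was reduced to its highest-scoring domains, 2i/LIF line 35 took its place among the 2i/LIF lists. Domains were kept from the highest score per bin down until 734 to 736 Mb were covered in each list, the length of the narrowest. This kept 35.1% of the domains of XS line 31, 39.9% of those of 2i/LIF line 35 and every domain of XS line 32. At this equal length, r over 2330 windows was 0.76, 0.77 and 0.83 among the 2i/LIF lists. Among the XS lists it was 0.39 to 0.60. Line 35 now had r of 0.47, 0.28 and -0.12 with XS lines 30, 31 and 32. XS line 30 remained intermediate, with 0.47 to 0.61 to the 2i/LIF lists and 0.39 to 0.60 to the other XS lists, and XS line 32 had -0.12 to -0.15 with the 2i/LIF lists, where its value with line 35 had been 0.31 with all domains. The Jaccard index was then 0.585 to 0.639 among the 2i/LIF lists, 0.360 to 0.460 among the XS lists and 0.175 to 0.460 across.

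**Figure D2:**
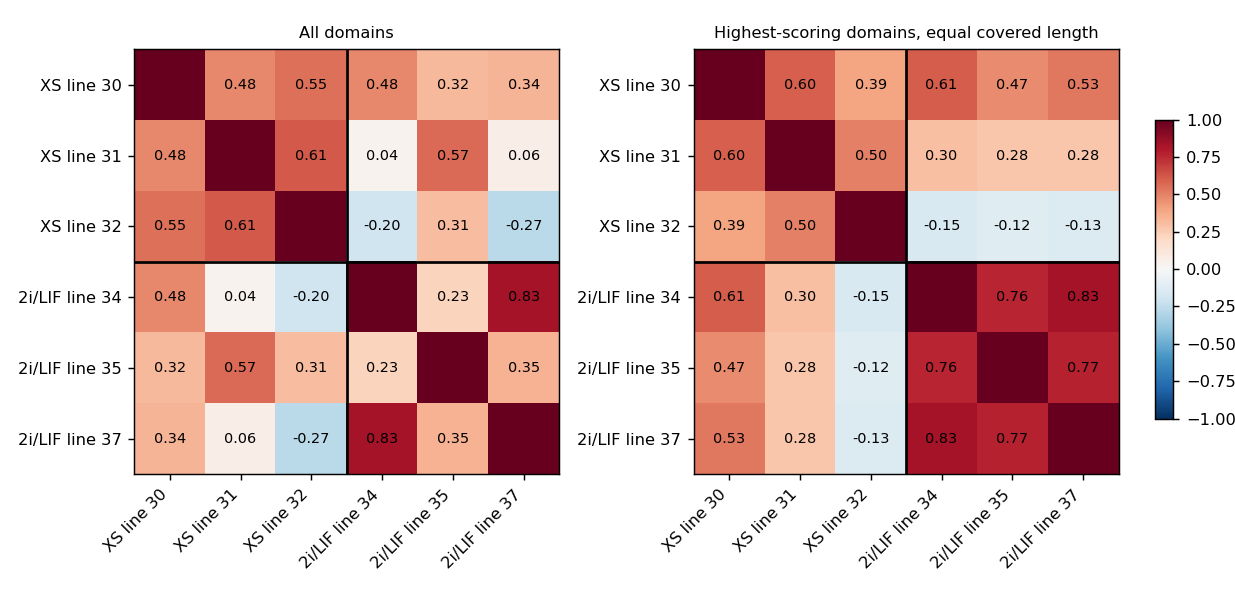
Pearson's r of coverage over 1 Mb windows for each pair of the 6 lists, with all domains (left) and with the highest-scoring domains at equal covered length (right); black lines divide Serum/LIF XS from 2i/LIF. 2i/LIF line 35 has r of 0.23 and 0.35 with its own culture on the left and 0.76 and 0.77 on the right.

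By whole chromosomes, no autosome had all XS lists above or below all 2i/LIF lists, which is 0% of 19. XS means were lower on 16 chromosomes and higher on 3, with a median difference of -5.24 percentage points. The largest deficit was on chromosome 13. Coverage there was 21.6%, 61.9% and 0.082% in XS lines 30, 31 and 32, with only 3 domains in line 32, against 36.3%, 78.5% and 54.0% in 2i/LIF lines 34, 35 and 37. Chromosome 13 was the lowest chromosome of every XS list, although XS line 31 still exceeded 2i/LIF lines 34 and 37. Its difference was -28.4 percentage points (exact permutation test, p = 0.3). The largest excess was on chromosome 3, with 30.8%, 75.7% and 34.6% in XS and 21.5%, 79.5% and 28.4% in 2i/LIF (3.91 percentage points, exact permutation p = 0.7). The excess on chromosome 3 turned to a deficit without XS line 31 (-10.4 points), without 2i/LIF line 34 (-6.92) or without 2i/LIF line 37 (-3.44). The lowest adjusted p over the 19 chromosomes was 0.894 (exact permutation, Benjamini-Hochberg).

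Divided by the coverage of the whole list, 6 chromosomes separated the groups, which is 31.6% of 19. Chromosomes 4, 12, 14 and 16 (21.1%) had a larger relative coverage in every XS list, and chromosomes 13 and 19 (10.5%) in every 2i/LIF list. On chromosome 16 the relative coverage was 1.10, 1.10 and 1.26 in XS lines 30, 31 and 32 and 0.81, 1.02 and 0.87 in 2i/LIF lines 34, 35 and 37. On chromosome 13 it was 0.60, 0.85 and 0.00 in XS and 1.05, 1.00 and 1.21 in 2i/LIF. On chromosome 19 it was 1.03, 1.02 and 0.78 in XS and 1.28, 1.03 and 1.33 in 2i/LIF, where XS line 30 and 2i/LIF line 35 all but met. Each separated chromosome had an exact permutation p of 0.1, the smallest possible, and 0.317 after Benjamini-Hochberg adjustment over 19.

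At equal covered length, 7 chromosomes separated the groups (36.8% of 19). Chromosomes 3, 4, 14 and 16 (21.1%) had the larger coverage in every XS list, and chromosomes 9, 11 and 13 (15.8%) in every 2i/LIF list. Coverage of chromosome 16 was then 34.7%, 46.8% and 38.4% in XS lines 30, 31 and 32 and 23.0%, 23.7% and 21.9% in 2i/LIF lines 34, 35 and 37. For chromosome 13 it was 18.0%, 15.7% and 0.082% in XS and 29.9%, 33.0% and 33.8% in 2i/LIF. For chromosome 3 it was 23.0%, 26.8% and 34.6% in XS and 17.7%, 15.1% and 14.3% in 2i/LIF. Chromosome 9 went the other way, with 32.7%, 31.1% and 24.0% in XS and 38.9%, 42.0% and 40.4% in 2i/LIF. The exact permutation p was 0.1 for each of the 7, and 0.271 after adjustment over 19. Chromosomes 4, 13, 14 and 16 separated in the same direction by both scalings.

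**Figure D3:**
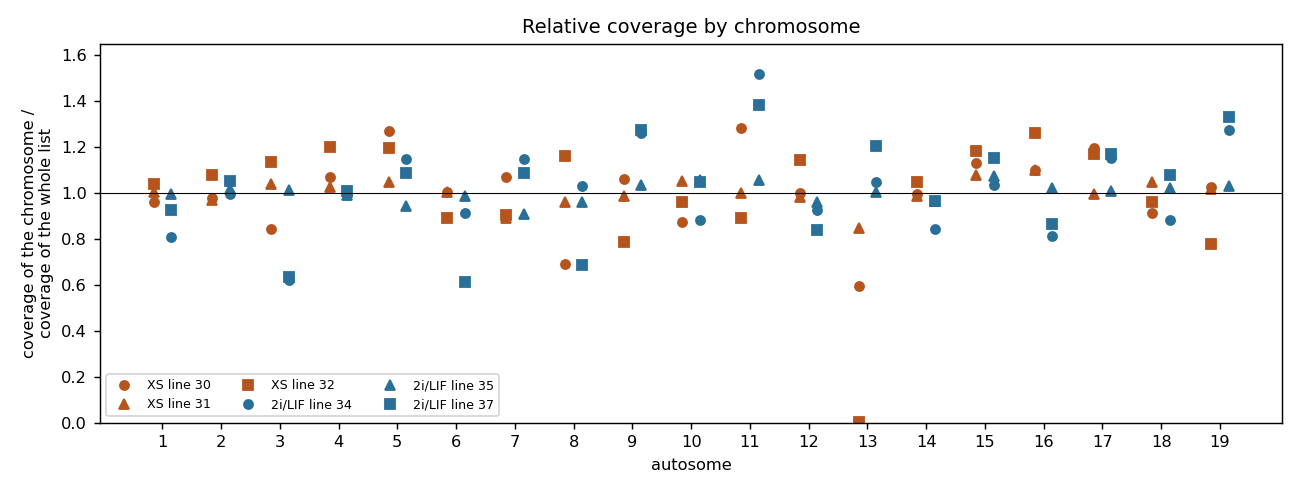
Coverage of each autosome divided by the coverage of the whole list (vertical axis, ratio) for the 3 Serum/LIF XS lists (orange) and the 3 2i/LIF lists (blue). Chromosome 13 lies at 0.60, 0.85 and 0.00 in XS and at 1.00 to 1.21 in 2i/LIF, and chromosome 16 at 1.10 to 1.26 in XS and 0.81 to 1.02 in 2i/LIF.

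In single windows of 1 Mb, 80 had every XS list above every 2i/LIF list, which is 3.34% of those tested. In 348 windows, 14.5%, every 2i/LIF list lay above every XS list. A margin of at least 10 percentage points was met in 49 (2.05%) and 166 (6.94%). Because these windows were chosen by this order, their values in the 6 lists are a description. If the 6 lists of a window were in random order without ties, each direction would be expected in a share of 0.05. The observed share lay below this value with XS above and over it with 2i/LIF above. Windows are not independent, so neither share was tested. A limma test of the difference across all 2392 windows, on the arcsine square root of coverage, called no window in either direction (0%), with a lowest Benjamini-Hochberg adjusted p of 0.464. In simulated windows with the spread of these lists, the test found none of 200 changes of 0.5 on this scale. Larger changes were not simulated. The absence of calls therefore does not show that windows did not differ. At an unadjusted limma p under 0.05 there were 131 windows with XS higher and 114 with 2i/LIF higher, together 245 (10.2% of 2392). With no difference in any window, a share of 0.05 would be expected on average under this threshold. Windows of a list are not independent, so the share in a single comparison can lie far from 0.05. The 10.2% is therefore not read as an excess. Over single lists left out the count ran from 53 (2.22%, without 2i/LIF line 37) to 514 (21.5%, without XS line 31). The margin was under 1 percentage point in 3 windows for XS and 30 for 2i/LIF, and 25 and 103 windows missed the rule by at most 1 point. An example just inside is the window on chromosome 6 from 75000001 to 76000000, with 85.8% in XS line 30 and 85.0% in 2i/LIF line 35. One just outside is the window on chromosome 16 from 77000001 to 78000000, with 90.9% and 91.2% in the same lists.

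The 80 windows with XS above were nearly full in XS and nearly empty in 2i/LIF lines 34 and 37. The median coverage was 87.3%, 100% and 95.1% in XS lines 30, 31 and 32, 0% in 2i/LIF lines 34 and 37, and 68.0% in 2i/LIF line 35. Line 34 had no domain at all in 75 of the 80 windows and line 37 in 59. 2i/LIF line 35 was the highest of its culture in 79 windows and so set the margin, and XS line 30 was the lowest of its own in 63. Leaving out a list relaxes the rule, so the number of separated windows can then only stay or rise. Without 2i/LIF line 35 it went from 80 to 472 (19.7%), and without XS line 30 or XS line 32 to 188 (7.86%) or 145 (6.06%). Domains that touched the 80 windows had medians of 623, 3647 and 508 kb in XS lines 30, 31 and 32 and 569 kb in 2i/LIF line 35; windows chosen for high XS coverage are bound to be touched by long XS domains.

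The 348 windows with 2i/LIF above were less extreme. The median coverage was 26.5%, 44.7% and 3.70% in XS lines 30, 31 and 32 and 62.2%, 78.0% and 65.5% in 2i/LIF lines 34, 35 and 37. XS line 31 was the highest of its culture in 258 windows and XS line 30 in 86. XS line 32 had no domain in 141 of the 348 windows, and all 3 XS lists were empty in 15. Without XS line 31 the count, which leaving out a list cannot lower, was 1045 (43.7%), and without 2i/LIF line 34 it was 567 (23.7%). Weighting each domain by its score per bin raised it to 787 (32.9%), while the count with XS above was 88 (3.68%). In the bins covered by all 6 lists the score per bin of every XS list lay below that of every 2i/LIF list, as given above; its part in this count was not tested.

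**Figure D4:**
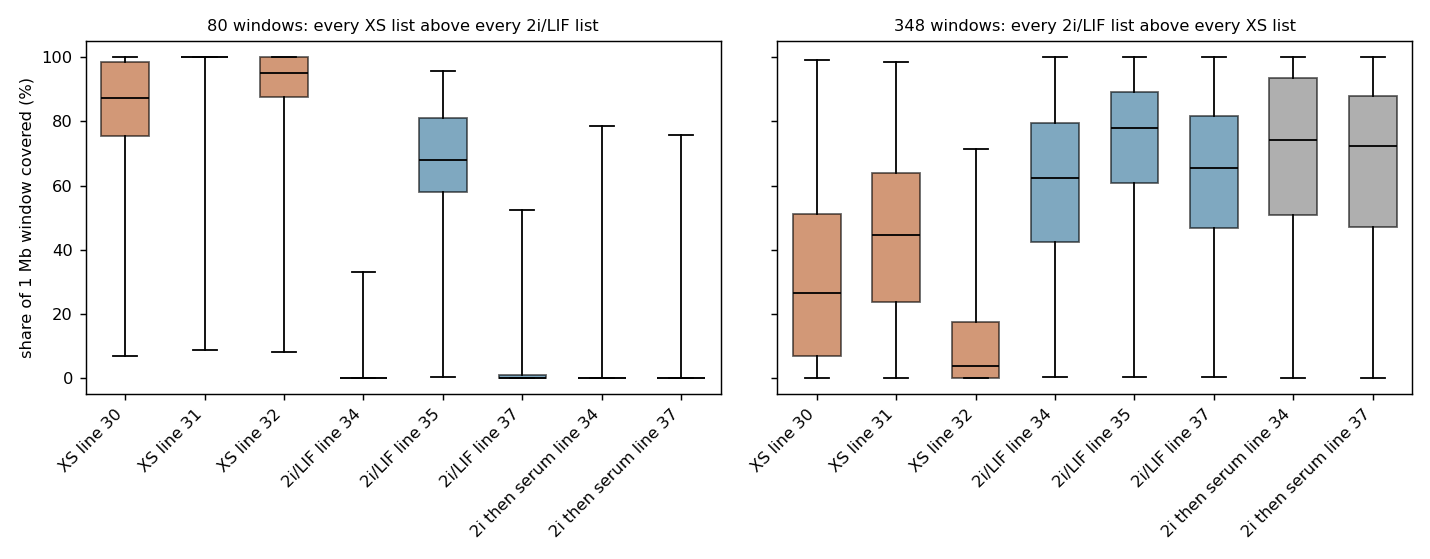
Share of each 1 Mb window covered, in percent, for the 80 windows with every XS list above every 2i/LIF list (left) and the 348 with the reverse order (right); boxes are quartiles with the median, whiskers reach the lowest and highest window. The order of the orange and blue boxes was fixed by the choice of windows; the grey boxes are the lists of cells moved from 2i/LIF to Serum/LIF, with medians of 0% on the left and of 74.2% and 72.3% on the right.

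Both kinds of window were unevenly spread. Windows with XS above made up 8.67% of chromosome 5 (13 of 150) and 8.42% of chromosome 16 (8 of 95), and there were none on chromosomes 9, 13 and 19. Windows with 2i/LIF above were most frequent on chromosome 13 (27 of 117, 23.1%), chromosome 7 (31 of 141, 22.0%) and chromosome 11 (25 of 119, 21.0%), and least on chromosome 3 (9 of 157, 5.73%). Without chromosome 13, where XS line 32 has almost no domain, 321 windows (14.1%) remained with 2i/LIF above and 80 (3.52%) with XS above. With each chromosome cut into 10 equal segments, 1 of 247 windows in segments at the start of the chromosome and 2 of 231 in those at its end had XS above. The share was highest in segment 6, with 16 of 240. Windows with 2i/LIF above ranged from 9.36% to 17.9% over the segments.

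Most separated windows stood alone. The 80 windows with XS above formed 67 blocks, 56 of them a single window, and the 348 with 2i/LIF above formed 263 blocks, 196 of them single. The longest XS-above block was on chromosome 5 from 83000001 to 86000000 (3 Mb, mm9). XS lines 30, 31 and 32 covered 82.1%, 100% and 91.9% of it, 2i/LIF line 35 covered 61.2%, line 37 covered 2.43% and line 34 had no domain. A second block of this length on the same chromosome, from 57000001 to 60000000, had 86.6%, 100% and 95.8% in XS and 67.3% in 2i/LIF line 35, with lines 34 and 37 empty. On chromosome 16 from 70000001 to 72000000 all XS lists were at 100%, against 0%, 64.6% and 16.9% in 2i/LIF lines 34, 35 and 37. Chromosome 3 from 76000001 to 78000000 and chromosome 1 from 149000001 to 151000000 showed the same pattern, with XS at 96.8% to 100% and at 97.7% to 98.6%, 2i/LIF line 35 at 67.5% and 72.4%, and lines 34 and 37 empty.

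The single windows with the widest margin for XS were on chromosomes 5, 8 and 14. On chromosome 5 from 79000001 to 80000000 the XS lists covered 91.9%, 95.6% and 92.2%, and 2i/LIF line 35 covered 40.6% with lines 34 and 37 empty. On chromosome 8 from 117000001 to 118000000 XS covered 100%, 100% and 81.0% and 2i/LIF lines 34, 35 and 37 covered 9.61%, 33.9% and 10.9%. On chromosome 14 the windows from 109000001 to 110000000 and from 113000001 to 114000000 were full in every XS list, and in 2i/LIF only line 35 had domains there, over 54.6% and 58.0%. The fifth, on chromosome 5 from 47000001 to 48000000, had 70.9%, 100% and 92.2% in XS and 27.1% in 2i/LIF line 35, with lines 34 and 37 empty. None of these windows passed the limma test with all domains, where each had an adjusted p of 0.464.

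The longest block with 2i/LIF above was on chromosome 2 from 70000001 to 74000000 (4 Mb). XS lines 30, 31 and 32 covered 31.1%, 48.3% and 3.09% of it and 2i/LIF lines 34, 35 and 37 covered 66.9%, 80.4% and 64.0%. On chromosome 13, the block from 34000001 to 37000000 had 4.85%, 20.4% and 0% in XS and 45.4%, 67.5% and 61.3% in 2i/LIF. A second block on chromosome 13, from 48000001 to 51000000, had 19.1%, 48.6% and 0% against 65.5%, 77.7% and 72.1%. The 2 blocks on chromosome 15 were from 34000001 to 37000000, with 23.6%, 24.9% and 0.564% in XS and 53.5%, 62.7% and 53.5% in 2i/LIF, and from 6000001 to 9000000, with 9.14%, 47.8% and 0% in XS and 62.0%, 74.7% and 68.3% in 2i/LIF.

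The widest margin for 2i/LIF was in the window on chromosome 2 from 132000001 to 133000000, with 57.0%, 82.4% and 72.8% in 2i/LIF lines 34, 35 and 37, 6.63% in XS line 31 and no domain in XS lines 30 and 32. On chromosome 10 from 6000001 to 7000000 2i/LIF covered 73.7%, 71.7% and 75.7% and XS 10.4%, 23.0% and 0%. The 2i/LIF lists were at 74.8%, 74.9% and 74.9% on chromosome 9 from 109000001 to 110000000, where XS was at 19.4%, 28.6% and 2.08%. On chromosome 13 from 50000001 to 51000000 2i/LIF covered 55.0%, 74.9% and 67.0%, and XS covered 7.28% in line 31 and nothing in lines 30 and 32. On chromosome 19 from 29000001 to 30000000 the values were 60.9%, 75.03% and 70.5% in 2i/LIF and 13.3%, 20.3% and 0% in XS.

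**Figure D5:**
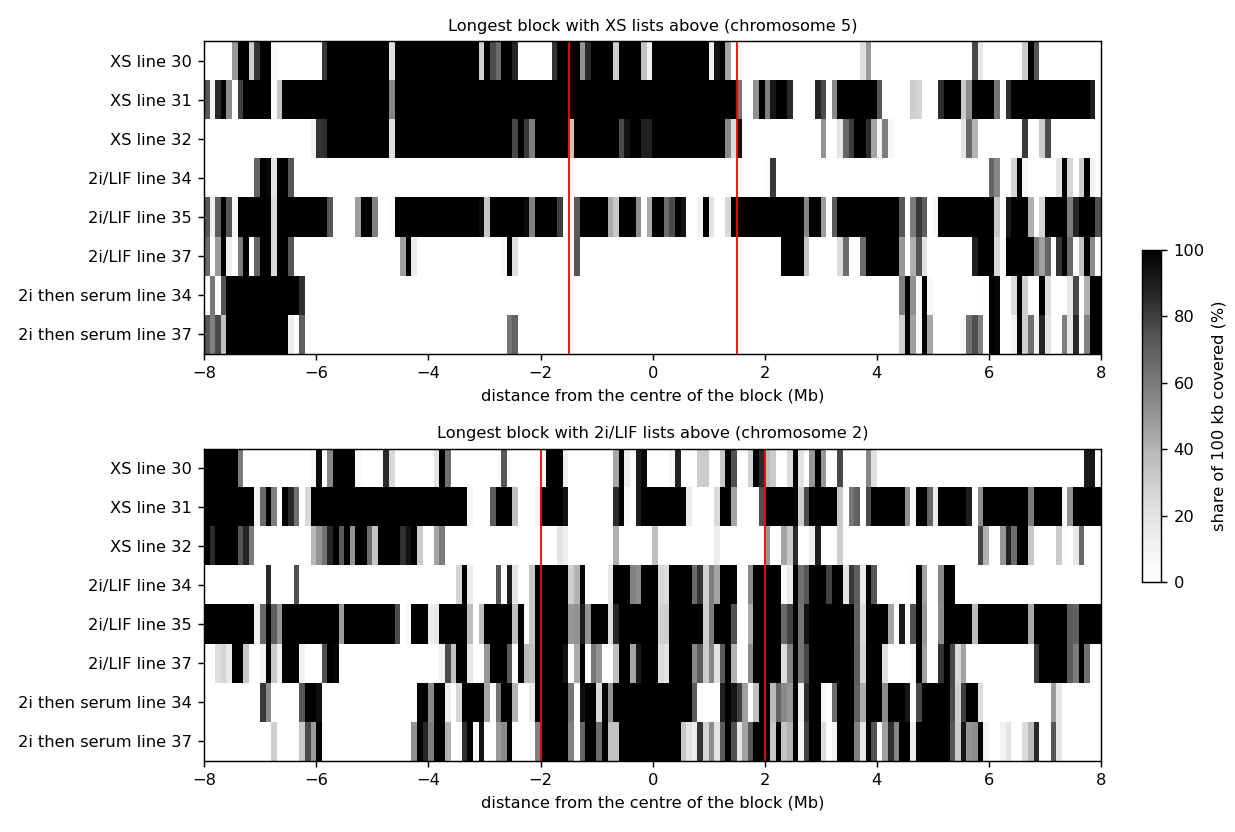
Share of each 100 kb covered (grey scale, percent) around the longest block with XS above, on chromosome 5 (top), and the longest with 2i/LIF above, on chromosome 2 (bottom), by distance in Mb from the centre of the block, whose ends are the red lines. In the upper block the 3 XS lists cover 82.1% to 100%, and 2i/LIF line 35 covers 61.2% in a broken pattern; in the lower block the 2i/LIF lists cover 64.0% to 80.4%.

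With the lists brought to a common width by score or by rank, the limma test called windows in both directions. At equal covered length, every XS list lay above every 2i/LIF list in 235 windows (10.1% of 2330) and the reverse held in 433 (18.6%). There, 140 windows were higher in XS (6.01% of 2330) and 109 higher in 2i/LIF (4.68%) at an adjusted p under 0.05, with a lowest adjusted p of 0.000365. With coverage replaced by the rank of the window within its list, 154 were higher in XS (6.44% of 2392) and 42 in 2i/LIF (1.76%), with a lowest adjusted p of 0.00636. By both scalings 61 windows were higher in XS, and 38 of these were among the 80 above. In 2i/LIF 8 were higher by both, 7 of them among the 348. Both scalings and the rule for separated windows used the same 6 lists, so this overlap is partly built in. Without 2i/LIF line 35 and with all domains, 109 windows were higher in XS (4.56%) and none in 2i/LIF. Among the settings run, calls came only from ranks, from equal covered length and from leaving out 2i/LIF line 35 alone or with XS line 31. Dividing by list coverage gave none, with a lowest adjusted p of 0.139.

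The blocks and windows named above were chosen by the order of the same lists that limma compared at equal covered length. Their adjusted p-values are therefore a description and not an independent check of these regions. Among the named windows, both windows of the block on chromosome 16 from 70000001 to 72000000 had an adjusted p of 0.000365 at equal covered length by limma. There the XS lists stayed at 100% and all 3 2i/LIF lists, line 35 included, were empty. The window on chromosome 14 from 109000001 to 110000000 had the same values and adjusted p. With no spread between lists in these windows, the spread in the test came from the other windows. On chromosome 1, the windows starting at 149000001 and 150000001 had adjusted p of 0.000679 and 0.000365, with XS at 95.4% to 100% and every 2i/LIF list empty. On chromosome 8 from 117000001 to 118000000 the adjusted p was 0.012. Not every named window passed. On chromosome 5 from 47000001 to 48000000 XS line 31 dropped from 100% to 0%, and the adjusted p was 0.252. XS line 31 also lost its domains in the block on chromosome 5 from 57000001 to 60000000, where the adjusted p was 0.208 to 0.338. On chromosome 14 from 113000001 to 114000000 it was XS line 30 that dropped to 0%, with an adjusted p of 0.207. Of the 2i/LIF windows, that on chromosome 2 from 132000001 to 133000000 passed, with 57.0%, 52.7% and 72.8% in 2i/LIF against at most 6.63% in XS and an adjusted p of 0.015. On chromosome 13 from 50000001 to 51000000 the 2i/LIF lists kept at most 1.17%, and the adjusted p was 0.818.

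Lists that had no part in choosing the windows were the 2 from cells moved from 2i/LIF to Serum/LIF, of lines 34 and 37. In the 80 windows with XS above, these lists had a mean coverage of 3.41% and 4.70%, and no domain in 71 and 63 windows, against 42.8% and 41.9% over all tested windows. Each lay below every XS list in 79 of the 80. In the 348 windows with 2i/LIF above, their mean coverage was 67.1% and 64.0%, and they lay above every XS list in 305 and 294. Over all 2392 tested windows they lay below every XS list in 620 and 609 and above every XS list in 771 and 710. Since the windows were chosen for high or low XS coverage, the position relative to XS is partly set by that choice. These lists had almost no domain on chromosomes 6 and 8; without these chromosomes the mean coverages were 3.901% and 5.37% in the XS-above windows and 73.0% and 69.8% in the 2i/LIF-above windows. The labelled final medium of the moved cells is Serum/LIF. In most windows of both sets their lists lay on the 2i/LIF side of XS, a position partly set by the choice of windows. In the 348 windows they lay above every 2i/LIF list in 152 and 119 and below every one in 78 and 97. In the 80 windows 2i/LIF lines 34, 35 and 37 had means of 1.21%, 66.9% and 5.51%. Over all tested windows their r was 0.72 to 0.77 with 2i/LIF lines 34 and 37, 0.077 and 0.096 with line 35, and -0.27 to 0.37 with the XS lists. The lists of moved cells share line numbers with 2i/LIF lines 34 and 37 and none with XS, so line and earlier culture cannot be told apart here. The blocks named on chromosome 5 and those on chromosomes 3 and 1 were empty in both lists. In the windows called at equal covered length, their mean coverage was 2.49% and 4.34% where XS was higher and 71.7% and 71.3% where 2i/LIF was higher. There were exceptions: in the chromosome 13 window from 50000001 to 51000000, high in 2i/LIF, they covered 10.7% and 25.9%. Serum/LIF S lists of lines 35 and 37 had no domain in the 80 windows and mean coverages of 0.033% and 0.755% in the 348. These lists hold 26 and 130 domains and had no domain in 99.2% and 95.6% of all tested windows, so their values say nothing about the separated windows.

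Bin by bin, little was exclusive to either culture. Of the span, 19.8% was in all 3 XS lists and 30.7% in all 3 2i/LIF lists, and 8.56% was in all 6. Only 31.7 Mb (1.31%) was in all XS lists and no 2i/LIF list, and 70.8 Mb (2.94%) in all 2i/LIF lists and no XS list. The longest unbroken XS-only stretch was on chromosome 5 from 78773501 to 79253200 (480 kb). The longest 2i/LIF-only stretch was on chromosome 9 from 109279301 to 109744700 (465 kb). A much longer stretch, on chromosome 14 from 107827201 to 112115900 (4289 kb), was in all 3 XS lists regardless of 2i/LIF. The XS-only length rose to 227 Mb without 2i/LIF line 35, and the 2i/LIF-only length to 253 Mb without XS line 31. Neither length can fall when a list is left out. Of the XS-only length, the lists of moved cells covered 12.7% (line 34) and 12.3% (line 37), and of the 2i/LIF-only length 66.5% and 67.4%.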

How the data were processed

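Per the submitters' processing notes, the authors used Bowtie2 2.0.6 and mm9 for the H2A.X native ChIP-seq reads. Which caller and control gave the domains, and whether samples were pooled, is not given in the sources used here. The deposited lists give, per domain, a position and 2 values, a score and a value of undefined meaning used only for its sign; the authors' score was divided by the number of bins. No gene was assigned and no sequence printed, because no mm9 genome or annotation was used here. The groups, regions and measures were chosen with earlier results of these data known.

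Windows of 1 Mb with at least 50% of their bins in the span and a domain in at least 1 of the 6 lists were tested. Neighbouring separated windows were joined into blocks; the 5 longest blocks and the 5 windows with the widest margin in each direction are named. Group values were compared by exact permutation tests, and windows by limma 3.58.1 in R 4.3.3, with Benjamini-Hochberg adjustment. Tested on simulated data, the limma fit recovered changed windows at a small spread between lists and none at the spread of these lists. Whether samples are separate cultures is not stated, so p-values measure only the spread between these lists, which may be technical. Alternatives were other window sizes and offsets, relative, ranked or score-weighted coverage, a minimum domain length of 10 kb, joining within 10 kb, equal covered length, filters on windows and leaving out each list. Python 3.11.15, numpy 2.4.6, pandas 2.3.3, scipy 1.17.1 and matplotlib 3.10.9 were used.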

Additional observations from a re-analysis of the deposited data

How the results depend on the processing

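No paired analysis was possible because Serum/LIF XS and 2i/LIF share no line number. Depth is unknown, since no list holds reads. The difference in median domain length reversed with the length-weighted median (174 kb) and ran from -117 to 40.1 kb when single lists were left out, with reversals without XS line 32 (40.1 kb) and 2i/LIF line 35 (19.3 kb). The covered share reversed at equal covered length (0.040 points, equal by construction) and ran from -19.1 to 6.85 points over lists left out, reversing without XS line 32 (2.02) and 2i/LIF line 35 (6.85). The score per bin kept its direction in all 10 alternatives. The number of separated chromosomes rose from 0 to 6 with relative coverage and to 7 at equal covered length, and ran from 0 to 5 over lists left out. The chromosome 3 difference reversed without XS line 31 (-10.4), 2i/LIF line 34 (-6.92) and 2i/LIF line 37 (-3.44), with a highest value of 22.1 without 2i/LIF line 35.

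Windows with XS above numbered 49 (2.05%) with a margin of at least 10 points. There were 184 with windows of 500 kb (3.87% of 4756) and 29 with windows of 2 Mb (2.43% of 1195), against 3.34% of 2392 at 1 Mb. With relative coverage they numbered 313 (13.1%), by rank 252 (10.5%) and at equal covered length 235 (10.1% of 2330). They ran from 80 to 472 (3.34% to 19.7%) over single lists left out. Without the widest list of each group, a setting chosen after seeing the data, they numbered 472 (19.7%). Windows with 2i/LIF above numbered 166 (6.94%) with the margin and 787 (32.9%) when score-weighted. There were 692 at 500 kb (14.55% of 4756) and 159 at 2 Mb (13.3% of 1195), against 14.55% of 2392 at 1 Mb. Over lists left out they ran from 348 to 1045 (14.55% to 43.7%), and without both widest lists they numbered 1048 (43.8%). The limma count rose from 0 to 196 (8.19%) by rank, 249 (10.7% of 2330) at equal covered length, and 51 (2.13%) without both widest lists. Over lists left out it ran from 0 to 109 (4.56%). XS-only length was 108 Mb at equal covered length and ran from 32.02 to 227 Mb over lists left out. The 2i/LIF-only length ran from 71.7 to 253 Mb over lists left out. Numbers of separated windows and chromosomes and these exclusive lengths can only stay or rise when a list is left out. Why each value moved was not tested beyond the widths given. For the 20 named regions, 164 of 180 alternative values moved by less than 1 SD. All 16 that moved further came from equal covered length or score weighting. Most of the 180 values only leave out 1 list or the domains shorter than 10 kb, and the SD is wide in many regions. The count of 164 therefore says little about how firm the regions are. On chromosome 13 from 50000001 to 51000000 the difference went from -63.2 to -0.390 points at equal covered length. On chromosome 5 from 57000001 to 60000000, with an SD of 38.8 points in 2i/LIF, a change from 71.7 to 47.3 points counted as less than 1 SD. Values that leave out a list cannot reverse, because the regions were chosen by the order of all lists.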

Other observations

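A deposited value of undefined meaning, given for each domain beside the score, was above 0 in 8, 10 and 2 domains of XS lines 30, 31 and 32 (0.316%, 0.452% and 0.046%). It was above 0 in 51, 48 and 21 domains of 2i/LIF lines 34, 35 and 37 (1.96%, 1.51% and 0.667%). These 2 groups did not overlap. Of these domains, 7, 8 and 1 in XS and 17, 26 and 12 in 2i/LIF were at most 13 kb long. In the lists of cells moved to Serum/LIF, lines 34 and 37, the value was above 0 in 16.8% and 1.06% of domains. In the Serum/LIF S lists of lines 35 and 37 it was above 0 in 100%. Higher shares were thus not particular to 2i/LIF.

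Domain scores in the separated windows moved away from the list averages in both directions. In the 80 windows with XS above, the score per covered bin was 0.618, 0.689 and 0.816 in XS lines 30, 31 and 32, compared with 0.691, 0.656 and 0.782 over the whole lists. In the same windows 2i/LIF lines 34, 35 and 37 had 0.829, 0.632 and 0.697, compared with 0.880, 0.717 and 0.796. These 2i/LIF values rest on 0.971, 53.5 and 4.41 Mb, against 67.4 to 77.7 Mb in the XS lists. The windows were chosen for lower 2i/LIF coverage, so little of lines 34 and 37 lies in them. In the 348 windows with 2i/LIF above, 2i/LIF lines 34, 35 and 37 had 0.880, 0.765 and 0.817, and XS lines 30, 31 and 32 had 0.733, 0.666 and 0.801. XS line 30 and 2i/LIF lines 35 and 37 were below their own average in the first set and above it in the second, and XS lines 31 and 32 were above it in both.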
